A study of Mus musculus with 4 samples.

Results

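The SLC25 genes encode the carrier proteins of the inner mitochondrial membrane, and 46 of them were compared between 2 kinds of proliferating mouse erythroid cells. Members were taken by name. They were the genes that the array's gene table pairs with a single symbol beginning Slc25a and a number, plus Ucp1, Ucp2 and Ucp3. Slc25a37 and Slc25a38, the iron and glycine carriers of red cell precursors, were left out by this rule. Each gene was read by its brightest probe set, taking the average of all 4 arrays. By this rule 46 members were measured among 19938 genes in all, and Ucp2 had no probe set with a name here.

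Mitochondria are closed by an inner membrane that nucleotides, metabolites and cofactors cross only through transport proteins. SLC25 carriers share a fold made of repeated membrane-spanning modules, and most of them exchange a solute of the matrix for one of the cytosol. They feed ADP and phosphate to ATP synthase, run the redox shuttles, bring in cofactors, and supply amino acids and iron. Red cell precursors depend on them for heme, whose synthesis begins and ends in the matrix. Several carriers exist as close relatives (paralogs) with the same substrate and different tissue patterns.

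MEL are a leukemic mouse erythroblast line (clone DS19) that stably carries a fusion of Gata-1 with the estrogen receptor (ER) and was grown in DMEM with serum and puromycin. ES-EP are normal erythroid progenitors derived from embryonic stem cells, grown in StemPro34 medium with erythropoietin (Epogen), IGF-1, dexamethasone, stem cell factor and β-mercaptoethanol. Each group was 2 cultures, A and B, with 1 Affymetrix Mouse Gene 1.0 ST array each. Cell type, transgene and medium changed together and cannot be told apart, and each group is a single line, so p-values measure the spread between cultures only.

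Values are log2 signals, on which a difference of 1 is a 2-fold difference. No detection calls were used, so the 95th percentile of olfactory receptor genes served as a mark of background (5.19 in MEL, 5.56 in ES-EP, here called the background mark). A fold whose lower signal lies at or under it is given as "against background", because its size is not exact. Array medians ran from 5.67 to 5.84. All 7 measured erythroid markers lay above the background mark in each of the cell types, and their summed linear signal was 12487 to 13058 in MEL against 18976 to 20069 in ES-EP. By limma 5 of the 7 were lower in MEL, led by Slc4a1 (5.87 in MEL, 11.34 in ES-EP) and Alas2 (8.75 and 11.87), both of late maturation, while Gata1 was 2.21-fold higher in MEL, which carry its fusion. Of 7 mast cell markers 2 were above the mark in MEL and 3 in ES-EP, and their summed linear signal was 277 to 285 in MEL against 2771 to 3031 in ES-EP, and in ES-EP Ms4a2 (11.05) and Hdc (9.28) made up almost all of it. Ms4a2 was at 3.95 in MEL and Hdc at 7.31, and Fcer1a, Cpa3, Cma1 and Mcpt4 were below the mark in both cell types. Myeloid (6 genes) and lymphoid (5 genes) markers summed to between 143 and 182 on each array. Of the myeloid markers 0 were above the mark in MEL and 1 in ES-EP (Csf1r, 4.71 in MEL and 5.61 in ES-EP). Of the lymphoid markers 1 was above it in MEL (Cd3e) and 2 in ES-EP (Cd3e and Cd8a). In bulk RNA, fewer cells of a type and less RNA per cell cannot be told apart, and the part of these markers in the differences below was not tested.

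The comparison asked how expression of the carriers differed between leukemic and untransformed erythroid cells. Of the 46 carriers, 12 were higher in MEL (26.1%, against 20.5% of all genes) and 18 were lower (39.1%, against 43.2% of all genes) at an adjusted p of 0.05 by limma. The remaining 16 did not pass. Both shares lay near those of all genes. The family's median difference was -0.10, against -0.15 for all genes. Differences of 2-fold or more comprised 5 carriers that were higher (10.9%, against 5.72% of all genes) and 2 that were lower (4.35%, against 4.27%). Rescaling the arrays changed the balance of small differences: called carriers then split into 16 higher and 18 lower (quantile normalization), 16 and 16 (median centring) or 17 and 16 (cyclic loess), while the higher share of all called genes went from 32.2% to 47.2%, 50.5% and 51.0%.

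The 5 were Slc25a13, Slc25a45, Slc25a24, Slc25a23 and Slc25a30, and the 2 were Slc25a21 and Slc25a2. Called carriers differed between 1.19-fold and 15-fold when higher in MEL and between 1.2-fold and 2.85-fold when lower. Replicates were close, with a median SD of 0.07 in either cell type and a highest SD of 0.25. The 2 cultures of each kind did not overlap for 37 of the 46 carriers, nor for 81.8% of all genes. Of the 46, 38 had a mean above the background mark in at least 1 cell type. The other 8 were near background in both: Slc25a2, Slc25a27, Slc25a31, Slc25a41, Slc25a53, Slc25a54, Ucp1 and Ucp3. Of these, Slc25a2, Slc25a41, Slc25a53 and Ucp3 were among the 18 that passed the test as lower in MEL. The mark itself was lower in MEL (5.19 against 5.56), and its part in these calls was not tested. Of the 38, 31.6% were higher and 36.8% lower in MEL. Among all genes above the mark in at least 1 cell type, these shares were 28.7% and 40.0%.

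**Figure D1:**
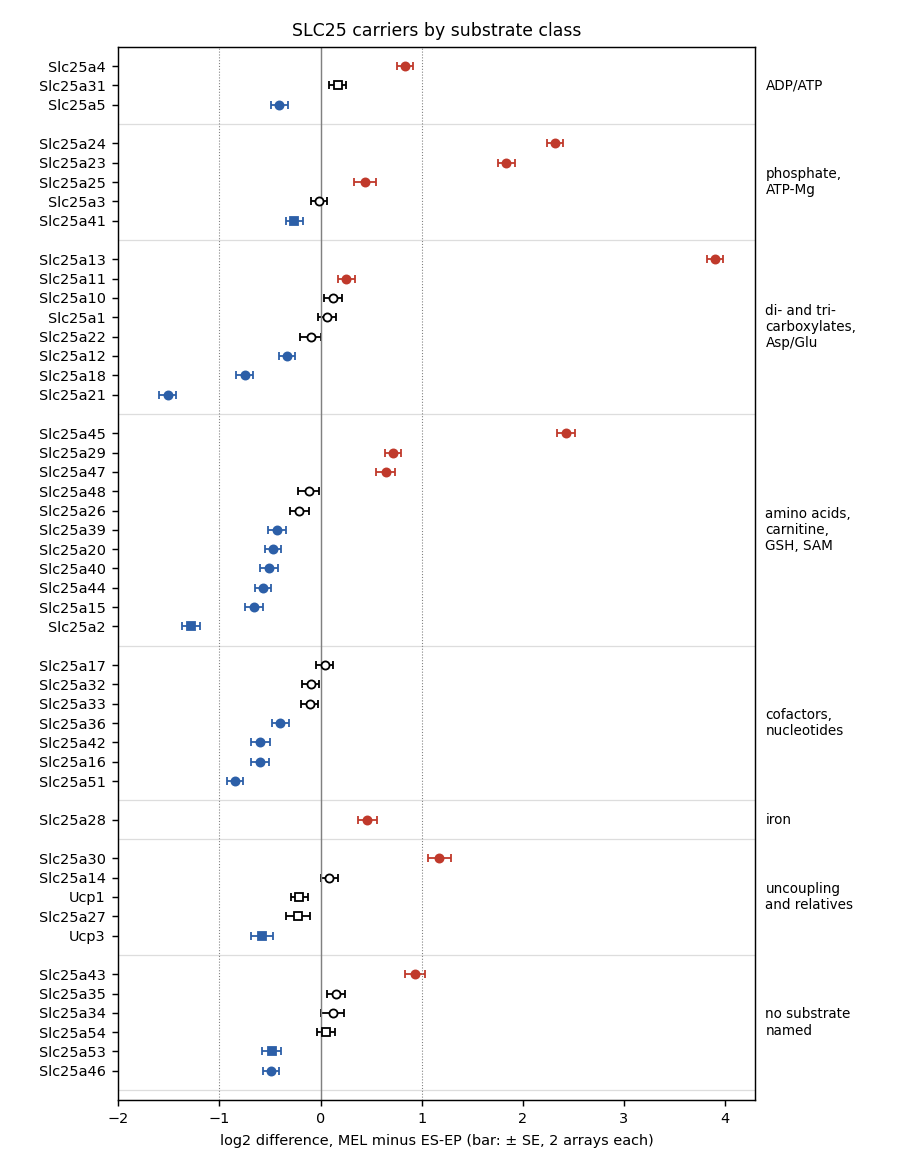
MEL minus ES-EP differences (log2) for the 46 carriers, ordered within substrate classes; bars are ± SE of the difference of 2 against 2 arrays. Red and blue symbols passed the limma test (12 higher, 18 lower), open ones did not, and squares are genes at or below the background mark in each of the cell types; dotted lines mark 2-fold, and Slc25a13 stands apart at 3.90.

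**Figure D2:**
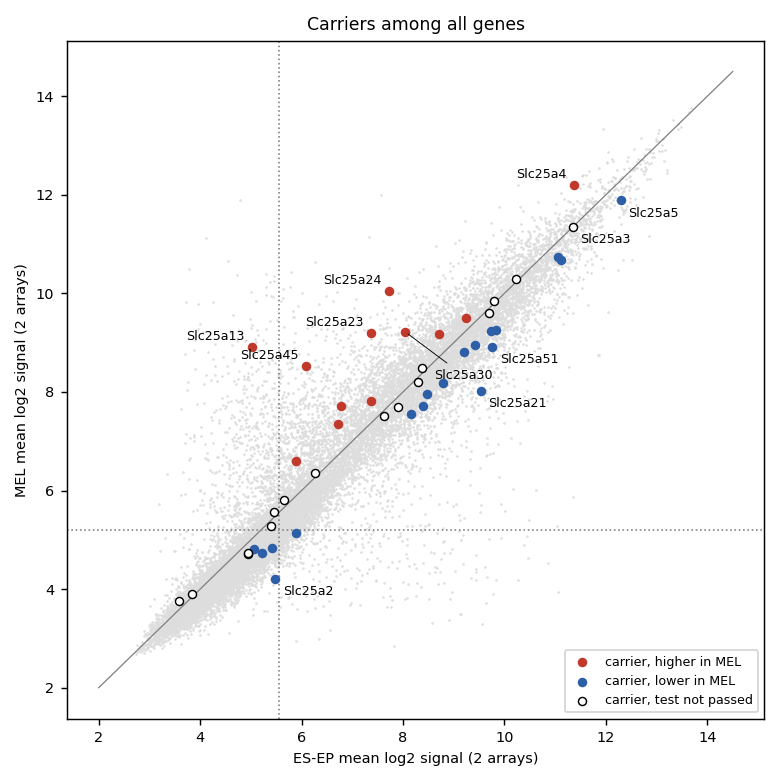
Mean log2 signal in ES-EP (x) and MEL (y), 2 arrays each, for all 19938 genes (grey) and the 46 carriers (circles colored as in the key). Dotted lines are the marks, 5.56 in ES-EP and 5.19 in MEL; Slc25a13 sits left of the ES-EP line while Slc25a3 lies on the diagonal.

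Aspartate-glutamate carriers send aspartate out of mitochondria in exchange for glutamate and are a step of the malate-aspartate shuttle, which moves reducing equivalents from cytosolic NADH. There are 2 of them, Slc25a12 (aralar, the form of brain and muscle) and Slc25a13 (citrin, the form of liver). Slc25a13 had the largest difference of the 46 carriers. To show where their genes start, the 250 bases before each start (RefSeq, GRCm38.p6) are printed 5′ to 3′ on the gene's strand, with capitals on letters of the motifs searched further on. Slc25a12 lies at chr2:71367756-71368005, minus strand, and Slc25a13 at chr6:6217174-6217423, minus strand.
Slc25a12: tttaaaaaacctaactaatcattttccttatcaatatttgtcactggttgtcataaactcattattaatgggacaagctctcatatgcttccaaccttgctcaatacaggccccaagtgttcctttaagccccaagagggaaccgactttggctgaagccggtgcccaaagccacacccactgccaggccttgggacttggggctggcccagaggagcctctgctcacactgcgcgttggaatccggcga
Slc25a13: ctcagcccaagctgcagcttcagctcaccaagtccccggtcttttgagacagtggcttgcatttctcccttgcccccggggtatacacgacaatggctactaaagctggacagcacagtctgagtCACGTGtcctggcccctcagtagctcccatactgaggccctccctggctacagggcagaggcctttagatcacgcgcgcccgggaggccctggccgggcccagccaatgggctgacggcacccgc

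Slc25a13 read 8.94 and 8.89 on the MEL arrays and 4.97 and 5.06 on the ES-EP arrays. Both ES-EP arrays were below the background mark and both MEL arrays far above it. The difference was 3.90 ± 0.08 (SE), or 15-fold against background (adjusted p = 4.48e-11). Slc25a12 read 10.77 and 10.70 in MEL against 11.04 and 11.09 in ES-EP. It was well above background in both cells and went the other way, 1.26-fold higher in ES-EP (-0.33 ± 0.08, adjusted p = 0.0046). That small difference did not pass after median centring (adjusted p = 0.0647) or in a test against a 1.2-fold difference (0.443), and the alternatives spanned 0.000118 to 1.

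The ADP/ATP carriers also parted. These proteins export the ATP made by ATP synthase in exchange for ADP. Slc25a4 (ANT1) is the form of heart and muscle, Slc25a5 (ANT2) that of dividing cells, and Slc25a31 (ANT4) that of the testis. The same windows before the starts of the first 2 are given because these paralogs moved in opposite directions. Slc25a4 lies at chr8:46211063-46211312, minus strand, and Slc25a5 at chrX:36795347-36795596, plus strand.
Slc25a4: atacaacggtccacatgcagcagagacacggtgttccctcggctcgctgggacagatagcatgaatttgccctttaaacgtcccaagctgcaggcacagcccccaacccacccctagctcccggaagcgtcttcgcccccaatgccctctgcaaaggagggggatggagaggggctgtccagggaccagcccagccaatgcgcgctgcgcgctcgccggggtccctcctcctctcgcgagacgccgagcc
Slc25a5: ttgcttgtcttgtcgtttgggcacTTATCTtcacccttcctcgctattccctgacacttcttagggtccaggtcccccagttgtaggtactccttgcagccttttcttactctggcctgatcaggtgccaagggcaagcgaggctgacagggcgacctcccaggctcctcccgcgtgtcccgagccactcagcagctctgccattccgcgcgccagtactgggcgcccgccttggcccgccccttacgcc

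Slc25a4 read 12.23 and 12.16 in MEL against 11.37 and 11.35 in ES-EP. All 4 signals were strong, and the cultures of the 2 cell types did not overlap. It was 1.78-fold higher in MEL (0.83 ± 0.08, adjusted p = 8.04e-06). Slc25a5 read 11.94 and 11.83 in MEL against 12.34 and 12.25 in ES-EP, 1.33-fold lower in MEL (-0.41 ± 0.08, adjusted p = 0.0017). Its 3 probe sets were all lower in MEL, with differences of -0.41, -0.37 and -0.25 (adjusted p = 0.0019, 0.0041 and 0.0301 among all probe sets). Near-identical copies of this gene could share its signal, so the 3 probe sets may not be independent readings. The call for Slc25a5 was lost in a test against a 1.2-fold difference (adjusted p = 0.146). Slc25a31 was at 3.76 in MEL and 3.59 in ES-EP, near background in both.

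**Figure D3:**
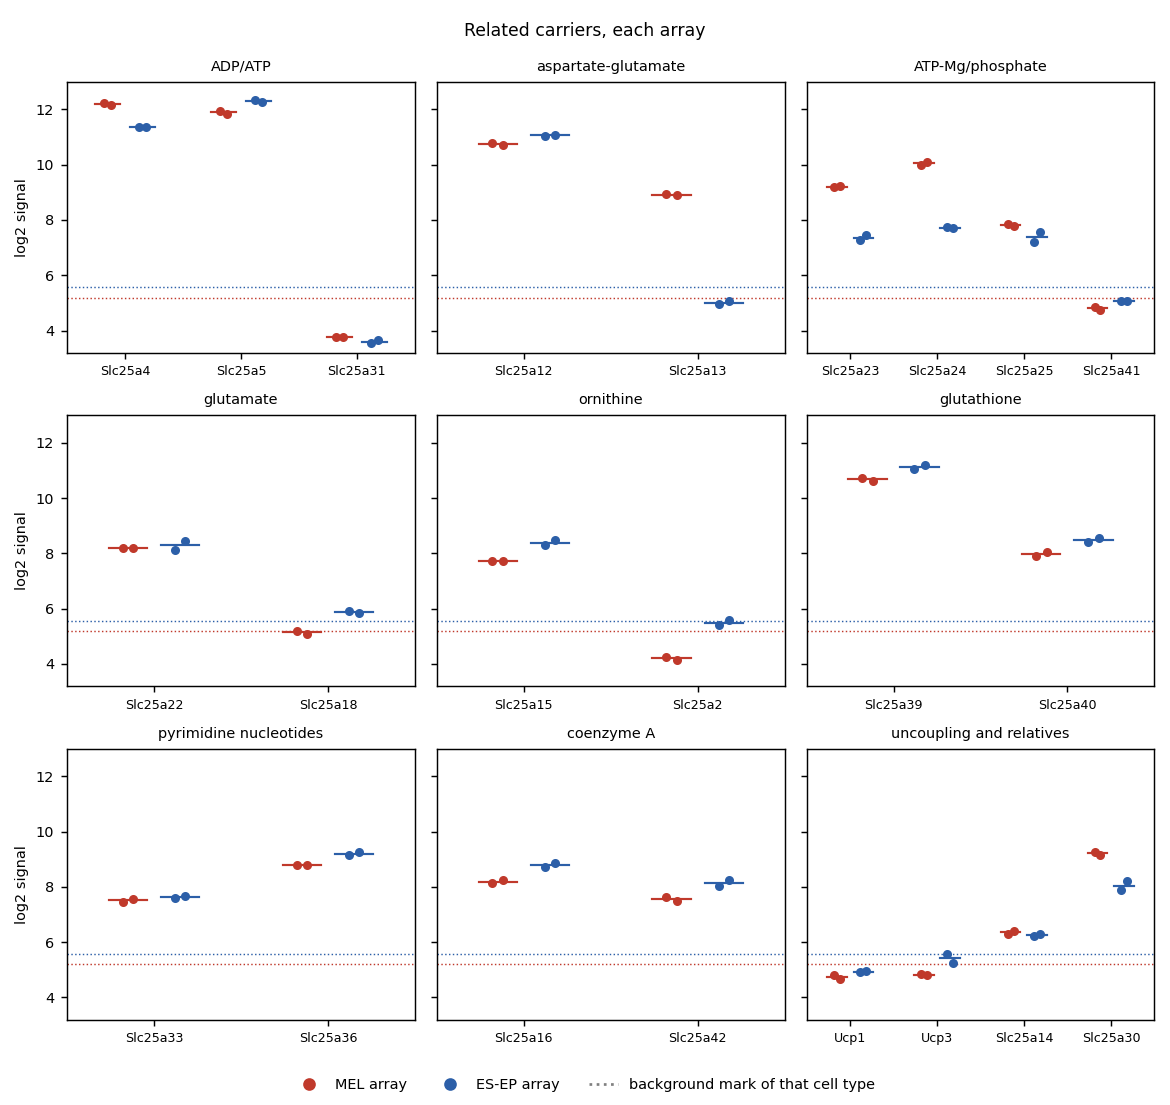
Log2 signal on each array for carriers grouped with relatives of the same or a similar substrate, red for MEL and blue for ES-EP. Points are single arrays, bars their means, and dotted lines are the background marks; Slc25a4 and Slc25a5 change in opposite directions, and Slc25a13 is at 8.92 in MEL and 5.01 in ES-EP.

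Phosphate reaches ATP synthase through Slc25a3. It read 11.34 on both MEL arrays and 11.35 and 11.37 on the ES-EP arrays. The difference of -0.01 ± 0.08 did not pass the test (adjusted p = 0.896), and its sign turned with each rescaling of the arrays, to at most 0.14. Of the 3 carriers that serve ATP export and phosphate entry and were clearly expressed, 1 was thus higher in MEL, 1 was lower and 1 did not pass.

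Carriers of ATP-Mg and phosphate set the size of the adenine nucleotide pool in the matrix, and most of them are switched by calcium at an EF-hand domain facing the intermembrane space. All 3 of the clearly expressed forms were higher in MEL, against 28.7% of all genes above the background mark in at least 1 cell type. Slc25a24 (SCaMC-1) read 10.00 and 10.09 in MEL against 7.74 and 7.71 in ES-EP, a 5.00-fold difference (2.32 ± 0.08, adjusted p = 2.27e-09). Slc25a23 (SCaMC-3) read 9.19 and 9.21 in MEL against 7.28 and 7.45 in ES-EP. It was 3.58-fold higher in MEL (1.84 ± 0.09, adjusted p = 2.71e-08). Both sets of cultures lay far apart.

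Slc25a25 (SCaMC-2) was 1.36-fold higher in MEL (0.44 ± 0.11, adjusted p = 0.0056), with ES-EP cultures at 7.21 and 7.55 and MEL cultures at 7.87 and 7.77. It did not pass without MEL replicate A (adjusted p = 0.0725). The short form Slc25a41, which lacks the calcium-binding part, was near background in both cell types (4.81 in MEL, 5.06 in ES-EP), where its difference of -0.26 passed the test (adjusted p = 0.019).

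Other carriers of di- and tricarboxylates differed less. The oxoglutarate carrier Slc25a11, the other membrane step of the malate-aspartate shuttle, was 1.19-fold higher in MEL (0.26 ± 0.08, adjusted p = 0.0168). Its adjusted p rose to 0.0673 without MEL replicate A, to 0.0854 without MEL replicate B and to 0.0706 with the first ES-EP culture left out. The citrate carrier Slc25a1, which supplies cytosolic acetyl-CoA for lipid synthesis, gave 10.32 and 10.26 in MEL against 10.13 and 10.32 in ES-EP. Its groups overlapped (0.06 ± 0.09, adjusted p = 0.554). The dicarboxylate carrier Slc25a10 differed by 0.12 ± 0.09 (adjusted p = 0.239).

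The oxodicarboxylate carrier Slc25a21, which brings in 2-oxoadipate from lysine and tryptophan breakdown, had the widest fall among clearly expressed carriers. It read 8.10 and 7.94 in MEL against 9.5 and 9.56 in ES-EP. This was a 2.85-fold lower signal in MEL (-1.51 ± 0.09, adjusted p = 1.22e-07), with no overlap. Of the glutamate carriers, Slc25a22 overlapped between groups (-0.10 ± 0.10, adjusted p = 0.441). Its relative Slc25a18 was 1.68-fold lower in MEL against background, at 5.19 and 5.09 in MEL against 5.93 and 5.85 in ES-EP (adjusted p = 2.51e-05).

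Among the 11 measured carriers of amino acids, carnitine, glutathione and S-adenosylmethionine, 3 were higher in MEL and 6 lower. Of all genes, 20.5% were higher and 43.2% lower. Slc25a45, an inner membrane relative of the carnitine carrier, stood out. It read 8.61 and 8.43 in MEL against 6.10 and 6.07 in ES-EP, where it was little above the background mark, and was 5.39-fold higher in MEL (2.43 ± 0.09, adjusted p = 2.77e-09). The basic amino acid carrier Slc25a29 read 6.61 on both MEL arrays and 5.88 and 5.90 in ES-EP, a 1.64-fold difference (adjusted p = 2.19e-05). Its relative Slc25a47, best known from liver, was at 7.33 and 7.39 in MEL against 6.82 and 6.61 in ES-EP, 1.56-fold higher in MEL (adjusted p = 0.00015).

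Lower in MEL were carriers of several unrelated substrates. Slc25a15, the ornithine carrier of the urea cycle, read 7.72 and 7.73 in MEL against 8.29 and 8.48 in ES-EP, a 1.58-fold difference (-0.66 ± 0.09, adjusted p = 0.00011). Slc25a2, the other ornithine carrier, was at 4.26 and 4.15 in MEL against 5.39 and 5.58 in ES-EP (2.43-fold lower, against background, adjusted p = 7.68e-07). Its means were below the background mark in each of the cell types. Slc25a44, a carrier of branched-chain amino acids, was 1.48-fold lower in MEL (adjusted p = 0.00014). Slc25a20, which takes acylcarnitines in for fat oxidation, was 1.38-fold lower (adjusted p = 0.00045).

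Slc25a39 and Slc25a40 import glutathione, and Slc25a39 is also needed for heme synthesis. Slc25a39 read 10.74 and 10.63 in MEL against 11.03 and 11.19 in ES-EP. It was 1.34-fold lower in MEL (-0.43 ± 0.09, adjusted p = 0.0018), a call lost in the test against a 1.2-fold difference (adjusted p = 0.126). Slc25a40 moved with it, 1.43-fold lower (-0.51 ± 0.09, adjusted p = 0.00057), and its dimmer probe set gave -0.29 ± 0.09 (adjusted p = 0.015 among all probe sets). The S-adenosylmethionine carrier Slc25a26 (-0.21 ± 0.10, adjusted p = 0.0748) and Slc25a48 (-0.12 ± 0.10, adjusted p = 0.357) did not pass.

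Iron enters mitochondria through mitoferrins. Slc25a28 (mitoferrin 2), the form of most tissues, read 9.22 and 9.15 in MEL against 8.61 and 8.83 in ES-EP. It was 1.38-fold higher in MEL (0.46 ± 0.09, adjusted p = 0.0016), and the groups did not overlap. The erythroid paralog Slc25a37 (mitoferrin 1), left out of the set by the rule, was at 8.56 and 8.51 in MEL against 9.64 and 9.83 in ES-EP, 2.31-fold lower in MEL (adjusted p = 1.06e-06). The Slc25a28 call was lost in the test against a 1.2-fold difference (adjusted p = 0.0831).

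Of the 7 measured carriers of cofactors and nucleotides, 4 were lower in MEL, against 43.2% of all genes, and 0 were higher, against 20.5%. On the deposited values none was higher at an unadjusted p under 0.05 by limma. Under each rescaling none was higher at an adjusted p of 0.05, though Slc25a17 came near it after median centring (adjusted p = 0.0605). Slc25a51, which brings NAD+ into the matrix, read 8.94 and 8.89 in MEL against 9.77 and 9.76 in ES-EP. The cultures agreed closely, and the signal was 1.80-fold lower in MEL (-0.85 ± 0.08, adjusted p = 6.56e-06). Both carriers linked to coenzyme A were lower too. Slc25a16 read 8.13 and 8.24 in MEL against 8.71 and 8.85 in ES-EP (1.51-fold, adjusted p = 0.0002), and Slc25a42 read 7.62 and 7.49 in MEL against 8.03 and 8.26 in ES-EP (1.51-fold, adjusted p = 0.00041).

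Pyrimidine nucleotides for mitochondrial DNA and RNA enter through Slc25a33 and Slc25a36. Slc25a36 was 1.32-fold lower in MEL by its brighter probe set (adjusted p = 0.0018), and its other probe set gave -0.50 ± 0.08 (adjusted p = 0.0005 among all probe sets). Slc25a33 did not pass (-0.11 ± 0.08, adjusted p = 0.284). Neither did the folate and FAD carrier Slc25a32 (-0.10 ± 0.09, adjusted p = 0.340) or the peroxisomal carrier Slc25a17 (0.04 ± 0.08, adjusted p = 0.674).

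Uncoupling proteins leak protons across the inner membrane as heat or to limit oxidant formation. Ucp1 (brown fat) was at 4.80 and 4.66 in MEL against 4.92 and 4.96 in ES-EP, and Ucp3 (muscle) at 4.84 and 4.82 in MEL against 5.58 and 5.24 in ES-EP. Both genes had means near background in both cell types, as had the brain form Slc25a27 (4.71 and 4.94). Of the 3, Ucp3 passed the test (-0.58 ± 0.11, adjusted p = 0.00099), on signals near background. Slc25a30, first known from kidney, and Slc25a14 had means above the background mark in both cell types. Slc25a30 read 9.28 and 9.16 in MEL against 7.87 and 8.21 in ES-EP, 2.26-fold higher in MEL (1.18 ± 0.11, adjusted p = 7.32e-06). Slc25a14, with means of 6.35 in MEL and 6.27 in ES-EP, overlapped between the groups (0.09 ± 0.09, adjusted p = 0.391).

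Of the 6 carriers with no substrate named here, Slc25a43 was 1.91-fold higher in MEL (0.93 ± 0.10, adjusted p = 1.84e-05), at 7.77 and 7.65 against 6.66 and 6.91. Slc25a46, an outer membrane protein of mitochondrial fission and fusion, was 1.40-fold lower (-0.49 ± 0.08, adjusted p = 0.00036). Slc25a35 (0.16 ± 0.09) and Slc25a34 (0.12 ± 0.12) did not pass here, though Slc25a35 passed under each rescaling and Slc25a34 under 2 of the 3, and Slc25a53 and Slc25a54 were near background in MEL and ES-EP alike. Of these, Slc25a53 passed the test (-0.48 ± 0.10, adjusted p = 0.0013) and Slc25a54 did not (0.06).

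**Figure D4:**
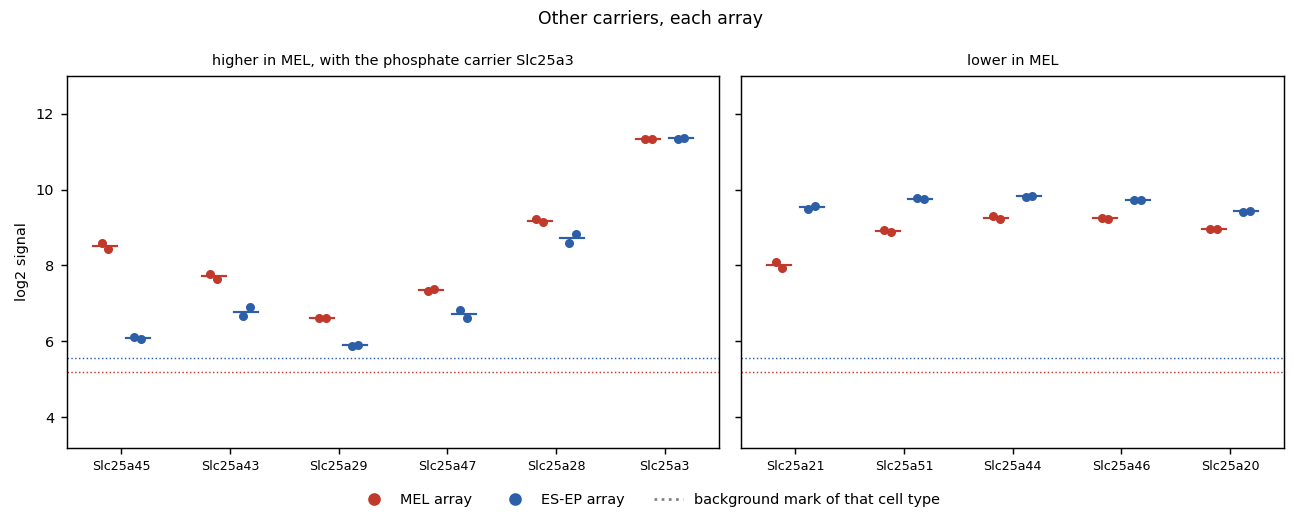
Log2 signal on each array for further carriers, red for MEL and blue for ES-EP; points are single arrays and bars their means. Left, 5 carriers higher in MEL with Slc25a3 for comparison; right, 5 carriers lower in MEL, all above the background marks (dotted).

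Genes of the family lie on 19 chromosomes, and 4 measured pairs are direct neighbors among protein-coding genes (GRCm38.p6 gene order). Both neighbors passed the test in the same direction in 1 pair, Slc25a29 and Slc25a47 on chromosome 12 (0.72 and 0.64). On the X chromosome Slc25a43 was higher (0.93) and Slc25a5 lower (-0.41) in MEL. Slc25a24 and Slc25a23 each sat beside a carrier that was near background in both cells, Slc25a54 on chromosome 3 and Slc25a41 on chromosome 17.

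Windows of 250 bases before the start were at hand for 37 members and for 17491 protein-coding genes, and 6 short motifs were searched on both strands. An E-box (CACGTG, the same on both strands) occurred for 7 of the 37 members (18.9%), against 7.61% of all genes. These were Slc25a1, Slc25a13, Slc25a14, Slc25a15, Slc25a31, Slc25a33 and Slc25a36, of which 1 was higher in MEL, 2 were lower and 4 did not pass. It is the capital run in the Slc25a13 window above. The letters AGATAA, a form of the GATA motif, occurred for Slc25a5, lower in MEL, and for Slc25a53, near background. These were 5.41% of members, against 10.3% of all genes, and the match is read on the opposite strand in the Slc25a5 window. Other forms of the GATA motif were neither searched nor marked, and the windows of Slc25a12 (ttatca) and Slc25a4 (agatag) hold such letters. The letters of NRF1 (GCGCATGCG), YY1 (AAGATGGCG), ERR (TCAAGGTCA) and PU.1 (GAGGAAGT) motifs were in no member's window, and in 2.19%, 0.84%, 0.36% and 2.57% of all genes. None of the 6 motifs contains another. A match is letters in a window and shows no binding.

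Genes that work with the carriers went both ways. Carriers are made in the cytosol, handed over by small Tim proteins and inserted by the TIM22 complex. Of 15 measured genes of this import route, 5 were higher in MEL and 6 lower, with a median difference of 0.05. Of all genes, 20.5% were higher and 43.2% lower, with a median of -0.15. Agk, a TIM22 subunit needed for insertion of the ADP/ATP carriers and of Slc25a24 and its like, read 8.90 and 8.80 in MEL against 7.08 and 7.18 in ES-EP. It was 3.30-fold higher in MEL (1.72 ± 0.09, adjusted p = 3.56e-08), the largest difference of this list. The channel subunit Timm22 itself did not pass (0.05 ± 0.09, adjusted p = 0.595). The small Tim proteins split, with Timm13 1.67-fold higher and Timm10 and Timm8b 1.83-fold and 1.70-fold lower in MEL. The outer membrane receptor Tomm22 and the small outer membrane subunit Tomm6 were 1.84-fold and 1.76-fold lower. The pore protein Tomm40 was 1.25-fold higher in MEL (adjusted p = 0.0067 by limma). Whether the probe set of Tomm22 shares signal with near-identical copies was not checked.

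Of 13 other transporters of mitochondrial membranes 4 were higher in MEL and 5 lower (median -0.02), against 20.5% and 43.2% of all genes. Sideroflexins, a separate family of which Sfxn1 carries serine, were called in both directions. MEL had more of Sfxn5 (2.76-fold), Sfxn4 (2.30-fold) and Sfxn2 (1.95-fold), the first 2 against background, whereas Sfxn1 and Sfxn3 were lower by 0.25 and 0.54 on the log2 scale. The pyruvate carrier subunit Mpc1 was 1.63-fold lower, the outer membrane channel Vdac2 1.63-fold lower and the distant SLC25 relative Mtch2 1.59-fold lower in MEL. For Mpc1, Vdac2 and Mtch2 it was not checked whether near-identical copies share the signal.

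Enzymes of the redox shuttles were measured beside their carriers. Got1, the cytosolic aspartate aminotransferase of the malate-aspartate shuttle, read 11.34 and 11.25 in MEL against 10.10 and 10.11 in ES-EP, 2.28-fold higher in MEL (1.19 ± 0.08, adjusted p = 5.11e-07). Its mitochondrial partner Got2 went the other way, at 11.27 and 11.18 in MEL against 11.74 and 11.87 in ES-EP (-0.58 ± 0.09, adjusted p = 0.0002). Whether the Got2 probe set shares signal with near-identical copies was not checked. The malate dehydrogenases Mdh1 (adjusted p = 0.965) and Mdh2 (adjusted p = 0.513) did not pass. In this shuttle, then, Slc25a13, Got1 and Slc25a11 were higher in MEL, Slc25a12 and Got2 were lower, and the dehydrogenases did not pass. The differences of Slc25a11 (0.26) and Slc25a12 (-0.33) were small. Neither passed a test against a 1.2-fold difference (adjusted p = 0.910 and 0.443). For the glycerol phosphate shuttle Gpd1 was lower by 0.32 on the log2 scale and near the background mark, and Gpd2 did not pass (0.07 ± 0.09).

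**Figure D5:**
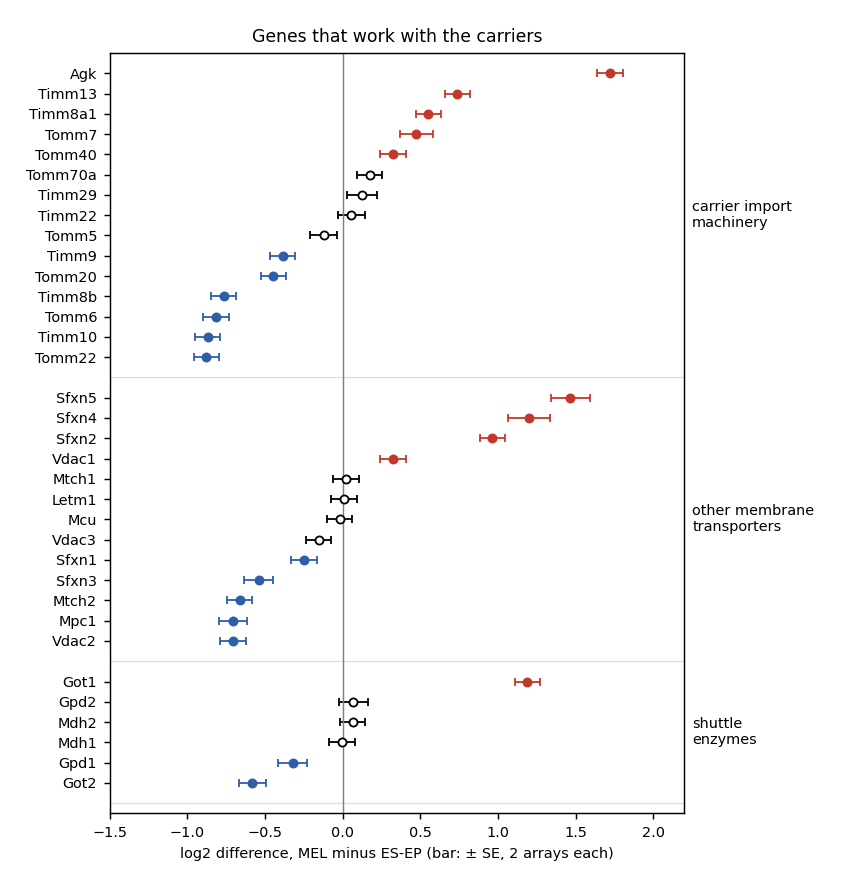
Log2 difference (MEL minus ES-EP, ± SE) of 34 measured genes that work with the carriers: 15 of their import route, 13 other membrane transporters and 6 shuttle enzymes. Red and blue points passed the limma test (10 higher, 13 lower in MEL, against 20.5% and 43.2% of all genes) and open ones did not. Agk is the highest at 1.72 and Tomm22 the lowest at -0.88.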

How the data were processed

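RNA of 2 MEL and 2 ES-EP cultures was hybridized to Affymetrix Mouse Gene 1.0 ST arrays. As the study's methods and the labels state, the authors normalized the scans by RMA in GeneSpring GX, and the deposited values are log2 signals for 35557 probe sets per array, with replicates kept apart. RMA makes array distributions alike, yet the deposited medians still differed, so rescaled values were tried as alternatives. A probe set was used where the array's gene table gave it 1 symbol (21789 probe sets, 19938 genes). Probe sets with several symbols (1621) or unnamed here (12147) were left out. Where probe sets lie in the genome was not checked, so near-identical copies could share the signal of genes other than Slc25a5 too.

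MEL minus ES-EP was fitted over all 19938 genes with limma 3.58.1 in R 4.3.3 (lmFit, eBayes; 2 residual degrees of freedom, prior 8.20; unblocked), two-sided, with Benjamini-Hochberg adjustment over all genes at 0.05. An exact permutation of 2 against 2 arrays cannot go below 0.333. Where a probe set other than the brightest is quoted, the fit ran over all 21789 probe sets. The limma fit was tested on simulated data, and the other steps were not. Values per array were given for carriers called with at least a 1.5-fold difference and for Slc25a3, Slc25a5, Slc25a28 and Slc25a39. Outside this rule they were also given for Slc25a1, Slc25a12, Slc25a25, Ucp1 and Ucp3, and for the left-out Slc25a37. Further carriers were named to account for all members. Genes of the partner lists were named where called with at least a 1.5-fold difference, and others of those lists were named after their values were seen. Members, lists, the background mark and motifs were chosen with earlier results of these data known. Promoter windows are from RefSeq (GRCm38.p6), and no other coordinates are given. The letters A and B do not pair the cultures by any label. Figures were made in matplotlib 3.10.9 with numpy 2.4.6 and pandas 2.3.3 under Python 3.11.15.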

Additional observations from a re-analysis of the deposited data

How the results depend on the processing

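The counts of 12 carriers higher and 18 lower in MEL stayed within 1.5 times of these values under all alternatives tried except Holm's adjustment, which left 7 and 3 (and 4 and 4 of the 10 and 13 partner genes). Rescaling moved the median of the carriers from -0.10 to 0.0203 (quantile normalization), 0.0458 (median centring) and 0.0198 (cyclic loess), along with that of all genes, from -0.15 to -0.03, -0.01 and -0.00. Calls gained by at least 1 rescaling were those of Slc25a10, Slc25a14, Slc25a26, Slc25a31, Slc25a34, Slc25a35 and Slc25a54, and calls lost those of Slc25a12, Slc25a41 and Slc25a53. None of the 30 called carriers changed sign under any alternative. Slc25a3, which was not called, turned to 0.0594, 0.136 and 0.0405 under the same 3 rescalings. A test against a 1.2-fold difference called 9 and 12. The culture letter as a replicate block gave 12 and 19, adding Slc25a27. Residuals of cultures with the same letter correlated at -0.04 over all genes. With 2 cultures in each group, this cannot exclude a batch shared by the same letter in some genes. Leaving out 1 culture gave 10 to 12 carriers higher and 17 to 19 lower, with calls lost for Slc25a11 (3 of the 4 omissions), Slc25a41 (2) and Slc25a25 (1). The alternatives for the partner genes and the single probe sets were chosen after seeing the data. Precision is limited by having 4 arrays, and genes near background are the least certain.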
